A study of Homo sapiens with 6 samples.

Results

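This account covers genes of endoplasmic reticulum (ER) translocation, folding and vesicle transport in 3 human multiple myeloma cell lines. Members were chosen by gene symbol in the platform's probe annotation: families of the signal recognition particle (SRP), translocon and coat proteins (SRP, SEC, SPCS, TMED, KDELR, DERL, SAR1 and related symbols) and a few genes listed by name. The rule found 56 genes, represented by 58 probe sets, among 14884 named genes. Of these, 46 passed the filter on low values and were tested among 7442 genes. No named gene matched the symbol patterns of SSR, PDIA, EDEM, LMAN or COPA, COPB, COPE and COPZ, so those proteins, and HERPUD1 and SYVN1, were not analysed here. The set therefore holds signal peptidase, p24 cargo receptors, ER degradation factors and parts of the translocon and COPII coat, but no protein-coding COPI gene. SEC61G, SEC13, SEC31A and the protein-coding SEC24 genes were not among the members.

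RPMI8226, KMS11 and U266 are established lines of malignant plasma cells. Each line gave 1 array after transfection with 100 nM scrambled control and 1 after 100 nM miR-10a mimic, with RNA taken at 48 h, so 6 Affymetrix whole-transcript arrays were available. Both groups received the HiPerFect reagent. A line's arrays came from separately transfected cells, and whether these were split from a single culture is not stated in the labels. The p-values measure only the spread left between these arrays after line and treatment terms, that is, how the mimic change differs between lines. That spread may be technical. The deposited values are log2 expression per probe set. They are comparable between arrays for 1 gene, but not between genes. The cultures were measured in bulk, where fewer cells expressing a gene and less RNA per cell cannot be told apart.

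Plasma cells live by secreting antibody. A nascent chain is bound by the signal recognition particle, threaded through the SEC61 channel, trimmed by signal peptidase and folded by lectin chaperones such as calnexin and calreticulin. Chains that fail to fold leave through a degradation channel built around SEL1L and the derlins, and folded cargo leaves in COPII vesicles with the help of p24 (TMED) receptors. Overload activates the unfolded protein response, whose transcription factors raise many of these genes and, under lasting stress, DDIT3.

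The agent supplied was a mimic of miR-10a, shown here because its seed defines the targets that the comparison could reveal. The RefSeq mature sequence (GRCh38.p14, chr17:48579904-48579926, minus strand) is given with the seed, bases 2 to 8, in capitals.
hsa-miR-10a-5p: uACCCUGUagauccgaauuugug

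The arrays divided by line. The Pearson correlation across tested genes, which are not independent replicates, was 0.992 to 0.993 within a line and 0.715 to 0.779 between lines. The median value of an array ran from 3.61 to 3.66. All 7 named plasma cell markers were tested, with XBP1 between 9.34 and 9.65 and IRF4 between 10.26 and 10.89 in every array. CD38 was 9.90 to 9.99 in RPMI8226 but 3.80 to 4.92 in KMS11 and U266, and SLAMF7 was 3.27 to 3.79 outside U266. SDC1 was 7.30 and 7.16 in RPMI8226, 5.52 and 5.72 in KMS11, and 9.49 and 9.48 in U266. MZB1 was 10.03 and 9.96, 7.92 and 8.06, and 6.18 and 6.11 in the same order. POU2AF1 lay between 4.93 and 5.14 in every array. The summed log2 level of the plasma cell markers ran from 55.5 to 55.8 in RPMI8226, 47.4 to 47.7 in KMS11 and 51.4 to 52.4 in U266. Of 6 named T cell and myeloid markers, 1 passed the filter (CD8A), and their sum lay between 20.9 and 22.4 in all arrays. Of 4 named B cell markers, 3 passed the filter (BLK, SPIB and BCL6), and the 4 summed to 18.4 to 20.6. BLK was 6.61 and 6.32 in RPMI8226 and 4.49 to 4.96 in the other lines. BCL6 was 5.67 and 5.63 in U266 and 4.35 to 4.61 in the others, and SPIB lay between 5.24 and 5.64. Of the 4 named stromal markers, DCN and LUM stayed between 1.98 and 2.44, while FN1 and VIM went opposite ways. FN1 was 12.8 in both RPMI8226 arrays and 4.69 to 6.05 in the other lines, and VIM was 6.13 and 6.20 in RPMI8226 and 9.41 to 9.62 in the others. The part of these marker differences in the results below was not tested.

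The first comparison asked how the secretory genes differ between lines, with both arrays of each line and a shared treatment term. An F test in limma called 42 of 46 members (91.3%) at an adjusted p of 0.05, against 82.4% of all tested genes. The median gap between the highest and the lowest line mean was 1.81-fold for members and 1.71-fold for all tested genes. A gap of at least 1.5-fold was seen for 33 members (71.7%, against 63.6% of all genes), of at least 2-fold for 15 (32.6%, against 36.4% of all genes) and of at least 4-fold for 3 (6.52%, against 9.90%). The 3 widest gaps were those of CLGN, DDIT3 and SEC11C.

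KMS11 was the line in which members were most often lowest, with the lowest line mean for 22 of 46 (47.8%, against 28.5% of all tested genes). RPMI8226 was lowest for 14 (30.4%, against 36.1%) and U266 for 10 (21.7%, against 35.4%). KMS11 and RPMI8226 differed for 31 members (67.4%, background 65.0%): 12 were higher in KMS11 (26.1%, background 35.6%) and 19 lower (41.3%, background 29.4%). U266 and KMS11 differed for 34 (73.9%, background 63.8%), with U266 higher for 23 (50%, background 29.8%) and lower for 11 (23.9%, background 34.0%). U266 and RPMI8226 differed for 34 (73.9%, background 67.4%), with U266 higher for 17 (37%, background 35.1%) and lower for 17 (37%, background 32.4%). The median difference of the members was -0.13 for KMS11 minus RPMI8226, 0.29 for U266 minus KMS11 and 0.02 for U266 minus RPMI8226. Over all tested genes these medians were 0.04, -0.04 and 0.0034. The 3 comparisons share arrays with one another, and whether the members differ from other genes was not tested.

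**Figure D1:**
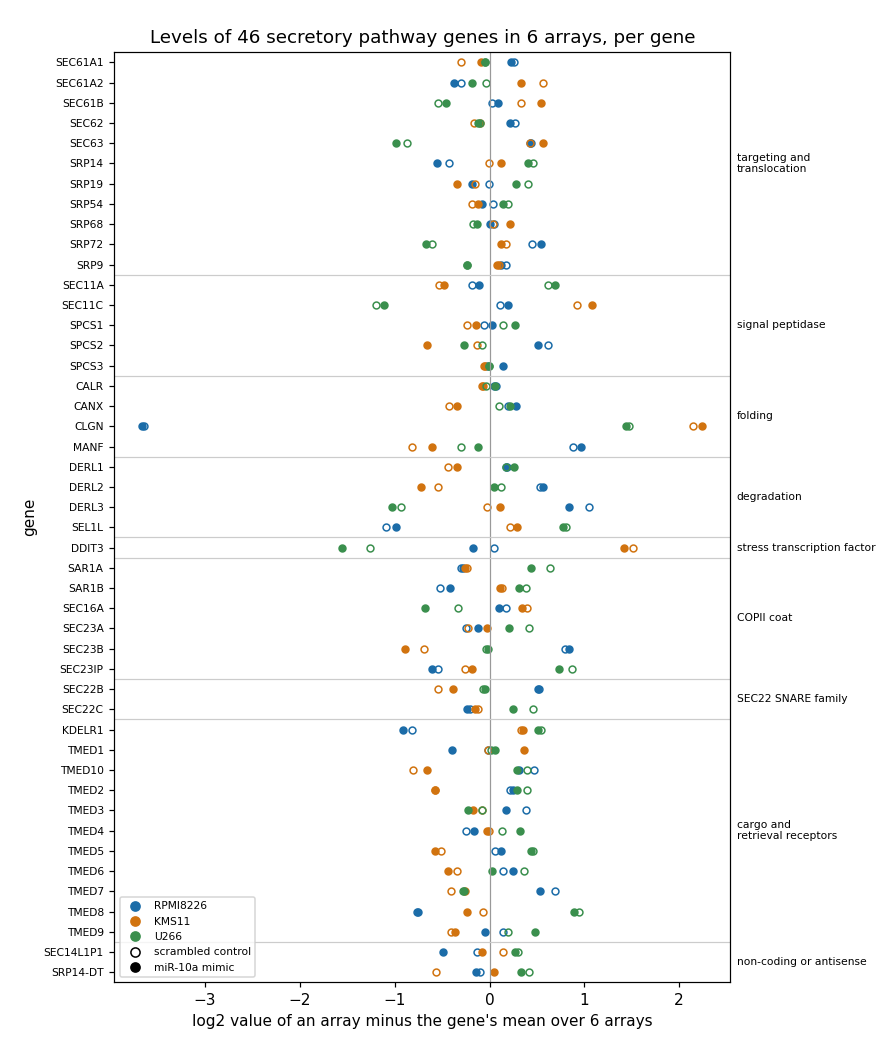
Each row is a tested member and each point an array, as its log2 value minus the gene's mean over 6 arrays (x axis); colour gives the line, open points the scrambled control and filled points the mimic. The open and filled points of a line lie close together while lines separate, most of all for CLGN, DDIT3 and SEC11C.

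A member was taken to stand apart in a line when that line differed in the same direction from both others. KMS11 was lower than both for 12 members (26.1%, background 14.4%) and higher for 5 (10.9%, background 19.2%). RPMI8226 was higher for 11 (23.9%, background 17.6%) and lower for 8 (17.4%, background 21.7%). U266 was higher for 12 (26.1%, background 18.6%) and lower for 8 (17.4%, background 18.9%). The KMS11-low members included the derlins DERL1 and DERL2, calnexin, SEC11A, SEC22B, SEC23B and 5 TMED genes.

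**Figure D2:**
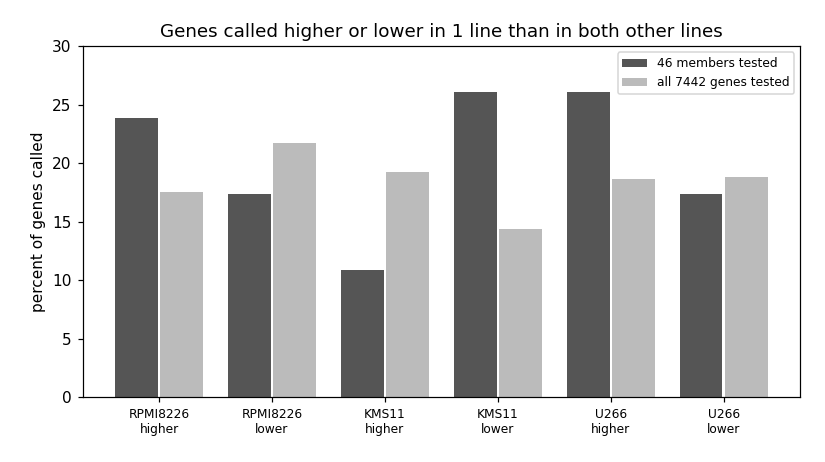
Bars give the percent of genes (y axis) called higher or lower in 1 line than in both other lines, dark for the 46 members and light for all 7442 tested genes. The KMS11-lower bar is 26.1% for members and 14.4% for all genes.

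Targeting and translocation genes split between the lines subunit by subunit. Of 11 tested, 10 were called by the F test (background 82.4%). In U266 against RPMI8226, 2 were higher and 6 lower (backgrounds 35.1% and 32.4%), and against KMS11 3 were higher and 6 lower (backgrounds 29.8% and 34.0%). The median U266 minus KMS11 difference of this group was -0.28, opposite in sign to the 0.29 of all members.

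SEC63, which couples the channel to the luminal chaperone BiP, had the widest gap of this group. It stood at 8.49 (control) and 8.50 (mimic) in RPMI8226, 8.50 and 8.63 in KMS11, and 7.19 and 7.08 in U266 (probe set 17022295). Both U266 arrays lay below all others, and the RPMI8226 and KMS11 arrays overlapped. U266 was 2.69-fold below KMS11 (log2 difference -1.43 ± 0.09, SE, 2 arrays a line, limma adjusted p = 7.28e-05) and 2.56-fold below RPMI8226 (adjusted p = 6.69e-05). The difference between KMS11 and RPMI8226 missed the threshold (0.07 ± 0.09, adjusted p = 0.556).

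SRP72, which with SRP68 anchors the particle's protein core on its RNA, was 10.41 and 10.50 in RPMI8226, 10.13 and 10.07 in KMS11 and 9.35 and 9.29 in U266. The lines did not overlap, and each step passed the test: -0.35 ± 0.08 from RPMI8226 to KMS11 (adjusted p = 0.0125) and -0.78 ± 0.08 from KMS11 to U266 (adjusted p = 0.0005). Its partner SRP68 was the most even gene of the group, at 8.98 and 8.94, 8.97 and 9.15, and 8.76 and 8.80 in the same order. The F test did not call SRP68 (adjusted p = 0.0646), although U266 minus KMS11 was -0.28 ± 0.09 (adjusted p = 0.035).

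SRP9 and SRP14 form the heterodimer that pauses translation, and their messages ran in opposite directions. SRP9 was 9.83 and 9.77 in RPMI8226, 9.76 and 9.73 in KMS11, and 9.42 and 9.42 in U266, the lowest line by 1.3-fold against RPMI8226 (adjusted p = 0.00613). SRP14 was 6.02 and 5.89 in RPMI8226, 6.44 and 6.57 in KMS11, and 6.90 and 6.85 in U266, the highest line by 1.89-fold (0.92 ± 0.09, adjusted p = 0.000343). No arrays of different lines overlapped for SRP14. SRP19, which helps assemble the particle, was also highest in U266, 1.51-fold above KMS11 (adjusted p = 0.00114). SRP54, the subunit that reads the signal sequence, was called by the F test (adjusted p = 0.0344). Of its pairwise contrasts only U266 minus KMS11 passed, at 0.32 ± 0.09 (adjusted p = 0.0183).

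SRP14-DT, a non-coding transcript that starts on the opposite strand near SRP14, was 5.03 and 4.98 in RPMI8226, 4.56 and 5.17 in KMS11, and 5.55 and 5.46 in U266. It was called higher in U266 than in KMS11 (0.63 ± 0.18, adjusted p = 0.0229), and against RPMI8226 it lay at the threshold (0.50 ± 0.18, adjusted p = 0.0497). SRP14 has 2 listed RefSeq starts. The start used here lies 109 bases from that of SRP14-DT, so its window contains both. The window is printed because SRP14 and SRP14-DT were each highest in U266. KMS11 lay above RPMI8226 for SRP14 (line means 6.50 and 5.95). For SRP14-DT it lay below (4.87 and 5.00), a difference that missed the threshold (limma adjusted p = 0.536). The 300 bases run from 250 before to 50 after an SRP14 start (GRCh38.p14, chr15:40039153-40039452, minus strand), with capitals on the first base of SRP14-DT, which reads away on the other strand, and then on the first base of SRP14.
SRP14: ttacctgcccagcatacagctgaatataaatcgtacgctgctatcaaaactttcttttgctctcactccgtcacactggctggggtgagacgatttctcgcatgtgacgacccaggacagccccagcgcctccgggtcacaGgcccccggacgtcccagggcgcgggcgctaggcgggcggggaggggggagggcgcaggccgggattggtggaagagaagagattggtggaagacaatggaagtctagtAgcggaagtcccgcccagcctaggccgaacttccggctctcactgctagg

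The channel's subunits also differed in order. SEC61A1, the main pore subunit, was highest in RPMI8226 (10.56 and 10.52, against 10.00 and 10.20 in KMS11 and 10.24 and 10.25 in U266), by 1.36-fold over KMS11 (adjusted p = 0.00766) and 1.22-fold over U266 (adjusted p = 0.0346). Its paralog SEC61A2 was instead highest in KMS11 (6.23 and 5.99, against 5.35 and 5.29 in RPMI8226 and 5.63 and 5.47 in U266), 1.73-fold above RPMI8226 (adjusted p = 0.00045). SEC61B, the small tail-anchored subunit, was 9.06 and 9.27 in KMS11, 8.74 and 8.81 in RPMI8226 and 8.18 and 8.26 in U266, with all 3 contrasts past the threshold. SEC62, which acts with SEC63, was called higher in RPMI8226 by 1.29-fold over KMS11 (adjusted p = 0.00837). The lower-reading second probe set of SEC62 read 7.46 and 7.51 in RPMI8226, 7.36 and 7.24 in KMS11 and 7.52 and 7.25 in U266, where RPMI8226 and U266 overlapped. When genes were not filtered, limma no longer called SRP54 (adjusted p = 0.0522) or SRP68 (0.0876) for U266 minus KMS11, nor SEC61A1 (0.0849) or SRP14-DT (0.0818) for U266 minus RPMI8226.

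Signal peptidase showed the sharpest exchange between paralogs. SEC11A and SEC11C are alternative catalytic subunits, and SPCS1, SPCS2 and SPCS3 are accessory subunits. SEC11C was 9.51 and 9.59 in RPMI8226, 10.31 and 10.48 in KMS11, and 8.20 and 8.28 in U266. SEC11A was 6.33 and 6.40 in RPMI8226, 5.98 and 6.04 in KMS11, and 7.13 and 7.20 in U266. The order of the lines was reversed between the paralogs, and neither gene's lines overlapped. U266 was 4.46-fold below KMS11 for SEC11C (-2.16 ± 0.08, limma adjusted p = 1.04e-05) and 2.23-fold above it for SEC11A (1.16 ± 0.08, adjusted p = 8.12e-05). The difference between the paralogs themselves was not tested.

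SPCS3, an accessory subunit, was the most even tested member, at 9.09 and 9.25 in RPMI8226, 9.06 and 9.06 in KMS11, and 9.10 and 9.10 in U266. Its arrays overlapped and the F test did not call it (adjusted p = 0.526). SPCS2 was highest in RPMI8226 at 7.14 and 7.04, against 6.39 and 5.87 in KMS11 and 6.45 and 6.26 in U266. It was 1.95-fold above KMS11 (adjusted p = 0.000802). SPCS1 was 1.32-fold higher in U266 than in KMS11 (adjusted p = 0.00558).

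**Figure D3:**
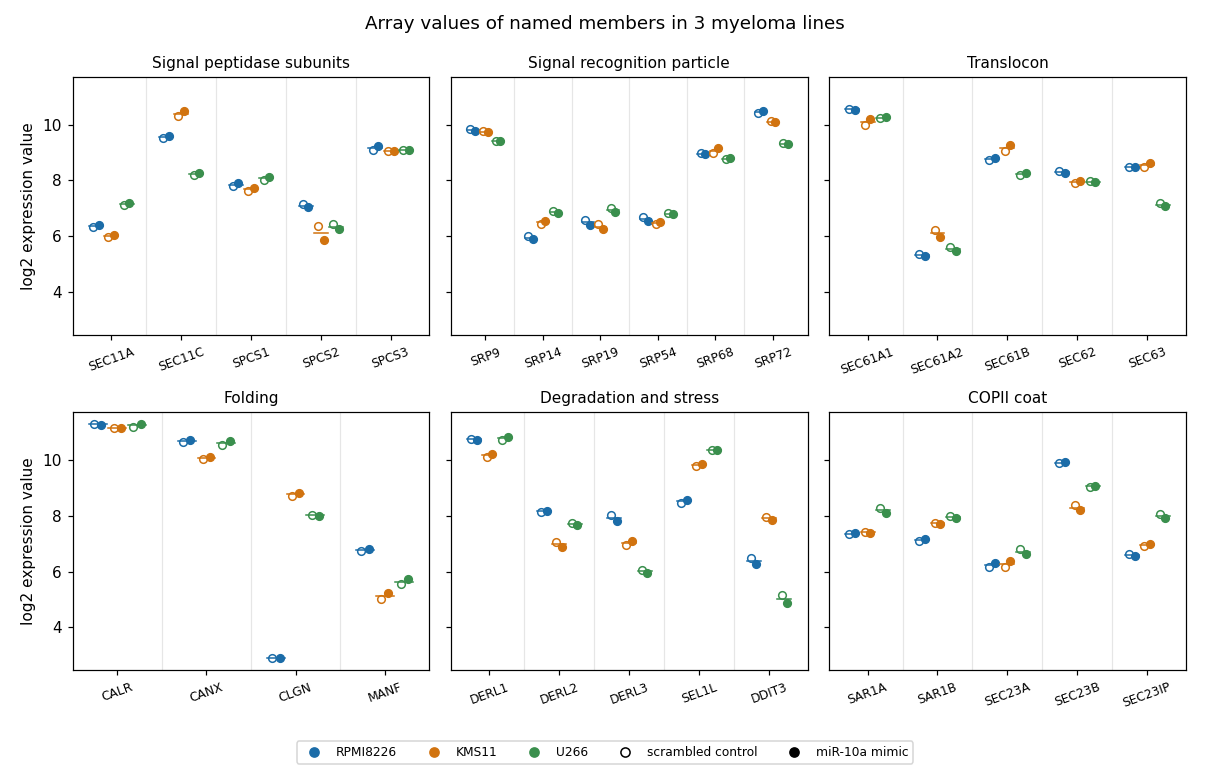
Log2 expression values (y axis, compared within a gene only) of 30 members in 6 panels by function; open points are control arrays, filled points mimic arrays and bars the mean of a line. SEC11A and SEC11C reverse the order of the lines, CALR and SPCS3 vary least between lines in their panels, and CLGN is at 2.90 to 2.92 in RPMI8226.

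Among the folding genes the lectin chaperones separated. CALR (calreticulin) is the soluble and CANX (calnexin) the membrane-bound chaperone of glycoproteins. CALR was 11.28 and 11.26 in RPMI8226, 11.13 and 11.14 in KMS11, and 11.18 and 11.27 in U266, and was not called (F test adjusted p = 0.354). Its widest difference, KMS11 minus RPMI8226, was -0.13 ± 0.08 (adjusted p = 0.206). CANX was 10.64 and 10.72 in RPMI8226, 10.01 and 10.10 in KMS11 and 10.54 and 10.65 in U266, so that KMS11 lay below all other arrays. KMS11 was 1.54-fold below RPMI8226 (adjusted p = 0.000824) and 1.46-fold below U266 (adjusted p = 0.00159), and RPMI8226 and U266 overlapped.

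CALR and CANX were the only members whose promoter windows held the ER stress response element (ERSE), a site of unfolded protein response factors, searched on both strands as CCAAT and CCACG with 9 free bases between them. RefSeq windows of 300 bases were listed for 48 of the 56 members, and 25 of 27305 genes with such windows held the motif (0.0916%). The windows of CALR (chr19:12938359-12938658, plus strand) and CANX (chr5:179698679-179698978, plus strand; GRCh38.p14) are printed because 1 of these genes was called between lines and the other was not. Capitals mark the fixed letters of the motif, which reads on the opposite strand in CALR.
CALR: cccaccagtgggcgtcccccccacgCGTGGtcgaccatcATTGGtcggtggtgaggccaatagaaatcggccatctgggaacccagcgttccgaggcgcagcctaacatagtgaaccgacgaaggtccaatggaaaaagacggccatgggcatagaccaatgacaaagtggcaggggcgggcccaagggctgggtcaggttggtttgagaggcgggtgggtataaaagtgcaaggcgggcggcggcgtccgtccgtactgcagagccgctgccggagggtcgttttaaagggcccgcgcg
CANX: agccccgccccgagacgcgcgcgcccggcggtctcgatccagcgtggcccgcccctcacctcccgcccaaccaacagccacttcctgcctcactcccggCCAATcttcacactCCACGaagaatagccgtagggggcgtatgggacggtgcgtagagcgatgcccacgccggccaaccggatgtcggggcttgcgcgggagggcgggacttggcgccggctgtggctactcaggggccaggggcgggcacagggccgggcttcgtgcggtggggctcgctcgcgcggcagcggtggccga

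Further motifs of stress-responsive promoters were searched on both strands in the same windows, with no overlap between their matches and the ERSE matches printed. The core TGACGTGG of the unfolded protein response element was found in 6 of 48 members (KDELR3, SEC16A, SEC16B, SEC23A, SEC62 and SRP19), and in 253 genes overall (0.927%). ERSE-II (ATTGG and CCACG with 1 free base between them) and TGATGCAA (the core read by ATF4 and DDIT3 dimers) were found in 0 members, and in 19 (0.0696%) and 295 genes (1.08%) overall. The members with the TGACGTGG core had no common line order: SEC23A and SRP19 were highest in U266, SEC62 in RPMI8226 and SEC16A in KMS11. A match describes the letters only.

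CLGN (calmegin), a calnexin-like chaperone best known from the testis, had the widest gap of any member. It was 2.92 and 2.90 in RPMI8226, 8.71 and 8.80 in KMS11, and 8.03 and 7.995 in U266 (probe set 16980051). RPMI8226 lay far below every other array, among values so low that, with no detection calls, the level there is not known to be above background. With the filter level of 4.70 taken as the floor for RPMI8226, KMS11 was at least 16.6-fold and U266 at least 9.92-fold higher. KMS11 was 1.67-fold above U266 (U266 minus KMS11 -0.74 ± 0.08, limma adjusted p = 0.000561).

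MANF, a secreted ER factor induced by stress, was 6.73 and 6.82 in RPMI8226, 5.03 and 5.25 in KMS11, and 5.54 and 5.73 in U266. RPMI8226 was 3.1-fold above KMS11 (adjusted p = 2.82e-05) and 2.19-fold above U266 (adjusted p = 8.41e-05), without overlap. DDIT3, the stress transcription factor CHOP, had a different order: 7.95 and 7.85 in KMS11, 6.48 and 6.26 in RPMI8226 and 5.17 and 4.88 in U266. KMS11 was thus highest for DDIT3 and lowest for MANF. KMS11 was 7.34-fold above U266 for DDIT3 (U266 minus KMS11 -2.88 ± 0.09, adjusted p = 5.19e-06) and 2.89-fold above RPMI8226 (adjusted p = 4.43e-05).

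All 4 degradation genes were called by the F test, where 82.4% of all genes were. SEL1L stood apart from the derlins. SEL1L, the scaffold of the HRD1 ubiquitin ligase, was 8.47 and 8.57 in RPMI8226, 9.77 and 9.84 in KMS11, and 10.36 and 10.34 in U266. U266 was 3.56-fold above RPMI8226 (1.83 ± 0.08, adjusted p = 1.55e-05) and 1.45-fold above KMS11 (adjusted p = 0.00197). The derlins, channel-forming membrane proteins, were lower in KMS11 than in RPMI8226 in all 3 cases.

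DERL3, the derlin most restricted to secretory cells, was 8.03 and 7.82 in RPMI8226, 6.96 and 7.09 in KMS11, and 6.05 and 5.95 in U266. It ran opposite to SEL1L, with RPMI8226 3.79-fold above U266 (U266 minus RPMI8226 -1.92 ± 0.11, adjusted p = 3.24e-05). DERL2 was 8.15 and 8.18, 7.07 and 6.88, and 7.74 and 7.66 in the order RPMI8226, KMS11, U266, and KMS11 was 2.28-fold below RPMI8226 (adjusted p = 0.000114). DERL1, the most even of the group, was 10.73 and 10.72, 10.10 and 10.20, and 10.72 and 10.81. For DERL1 only KMS11 stood apart, 1.49-fold below RPMI8226 (adjusted p = 0.00139), and U266 minus RPMI8226, whose arrays overlapped, missed the threshold (0.04 ± 0.08, adjusted p = 0.682).

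Of 6 tested COPII coat genes all were called by the F test, where 82.4% of all genes were. This group covers SAR1, SEC16A and the SEC23 genes only, with no SEC24 or outer coat gene tested. U266 was higher than RPMI8226 for 4 and lower for 2 (backgrounds 35.1% and 32.4%), and it was higher than KMS11 for 4 and lower for 1 (backgrounds 29.8% and 34.0%). SEC23A and SEC23B are paralogs of the inner coat, and their line orders differed. SEC23B was 9.87 and 9.91 in RPMI8226, 8.39 and 8.18 in KMS11, and 9.03 and 9.06 in U266. RPMI8226 was 3.05-fold above KMS11 (KMS11 minus RPMI8226 -1.61 ± 0.10, adjusted p = 4.94e-05). SEC23A was 6.16 and 6.29 in RPMI8226, 6.18 and 6.37 in KMS11, and 6.82 and 6.61 in U266, 1.41-fold higher in U266 than in RPMI8226 (adjusted p = 0.0113). RPMI8226 and KMS11 overlapped for SEC23A.

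SEC23IP, which binds SEC23 at ER exit sites, was 6.64 and 6.57 in RPMI8226, 6.92 and 6.99 in KMS11, and 8.06 and 7.92 in U266. U266 was 2.6-fold above RPMI8226 (adjusted p = 5.56e-05) and 2.04-fold above KMS11 (adjusted p = 0.000214). SAR1A and SAR1B, the GTPases that start coat assembly, were both higher in U266 than in RPMI8226, by 1.78-fold (adjusted p = 0.000449) and 1.76-fold (adjusted p = 0.000385). In KMS11, SAR1A missed the threshold against RPMI8226 (0.05 ± 0.09, adjusted p = 0.674) and SAR1B was 1.51-fold above it (adjusted p = 0.00151). SEC16A, the exit-site scaffold, was lowest in U266, at 7.35 and 7.003 against 8.08 and 8.02 in KMS11, or 1.83-fold lower (adjusted p = 0.000696).

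The SEC22 family encodes vesicle SNARE proteins of ER and Golgi traffic and relatives. SEC22B, the SNARE itself, was 8.96 and 8.95 in RPMI8226, 7.90 and 8.06 in KMS11, and 8.37 and 8.39 in U266, with RPMI8226 1.97-fold above KMS11 (adjusted p = 0.000199). SEC22C was 5.88 and 5.84, 5.96 and 5.93, and 6.55 and 6.33 in the same order, with U266 1.49-fold above RPMI8226 (adjusted p = 0.00195). The line orders of the 2 genes differed, as for SEC23A and SEC23B.

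Among 11 tested cargo and retrieval receptors, KMS11 had the lowest line mean for 6 (54.5%, against 28.5% of all tested genes). The F test called 10 (background 82.4%). Compared with RPMI8226, 7 were lower and 2 higher in KMS11 (backgrounds 29.4% and 35.6%), and compared with KMS11, 6 were higher and 0 lower in U266 (backgrounds 29.8% and 34.0%). The median U266 minus KMS11 difference of the group was 0.59.

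TMED2 and TMED10 are the best-studied p24 proteins, which pair in the vesicle membrane. TMED10 was 7.46 and 7.30 in RPMI8226, 6.18 and 6.33 in KMS11, and 7.39 and 7.28 in U266. TMED2 was 10.28 and 10.31, 9.49 and 9.49, and 10.46 and 10.36 in the same order. KMS11 lay below both other lines for each, by 2.17-fold against RPMI8226 for TMED10 (adjusted p = 0.000239) and 1.75-fold for TMED2 (adjusted p = 0.000376). U266 minus RPMI8226 missed the threshold for TMED10 (-0.04 ± 0.10, adjusted p = 0.723), whose arrays overlapped, and for TMED2 (0.12 ± 0.08, adjusted p = 0.26), whose arrays did not. The second probe set of TMED2 kept this order, with 7.34 and 7.21 in KMS11 against 8.23 to 8.48 in the other lines.

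For TMED6 the KMS11 arrays lay under the filter level, and against it as a floor U266 was at least 1.33-fold higher. TMED5 and TMED9 also had KMS11 as the lowest line in both contrasts, with U266 above KMS11 by 1.99-fold (adjusted p = 0.000177) and 1.64-fold (adjusted p = 0.00355). When genes were not filtered, the KMS11 minus RPMI8226 call of TMED9 was lost (limma adjusted p = 0.0527). TMED3 and TMED7 were instead highest in RPMI8226, by 1.32-fold and 1.92-fold over KMS11 (adjusted p = 0.00577 and 0.000437). TMED8, a member with a Golgi-dynamics domain, was placed in this group by its symbol alone. It was 6.59 and 6.60 in RPMI8226, 7.28 and 7.11 in KMS11, and 8.29 and 8.24 in U266. It had the widest gap of the group, with U266 3.2-fold above RPMI8226 (1.68 ± 0.09, adjusted p = 2.47e-05). TMED4 was called higher in U266 than in RPMI8226 (0.44 ± 0.09, adjusted p = 0.00603). TMED1 was not called (F test adjusted p = 0.191), with 5.61 and 5.22, 5.61 and 5.99, and 5.64 and 5.68, where the arrays of a line lay as far apart as the lines.

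KDELR1 encodes a receptor that returns ER residents from the Golgi. It was 8.47 and 8.37 in RPMI8226, 9.61 and 9.63 in KMS11, and 9.83 and 9.79 in U266. RPMI8226 lay below both other lines, by 2.3-fold against KMS11 (adjusted p = 7.82e-05) and 2.62-fold against U266 (adjusted p = 3.97e-05). The U266 arrays lay above the KMS11 arrays without overlap, but the difference missed the threshold (0.18 ± 0.08, adjusted p = 0.0948).

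The remaining tested member was SEC14L1P1, a transcribed pseudogene with a symbol of the SEC14 lipid-binding family rather than of the secretory coat. It was 5.36 and 5.00 in RPMI8226, 5.63 and 5.41 in KMS11, and 5.79 and 5.75 in U266. Its probes may also detect related genes, and U266 minus RPMI8226 was 0.59 ± 0.10 (adjusted p = 0.00311).

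Another 10 members fell below the filter, a mean of 4.70 log2 units, where detection is not known. They were KDELR3, SEC16B, SEC31B, SEC14L3, SEC14L4, SEC14L5, SEC14L6, COPG2IT1, SEC24B-AS1 and TMED10P1. SEC16B, a paralog of SEC16A, was 5.49 and 5.40 in U266 against 4.22 and 3.97 in RPMI8226 and 3.57 and 3.59 in KMS11. SEC31B, an outer coat paralog, was 4.88 and 5.06 in RPMI8226 against 3.97 to 4.30 in the other lines, and KDELR3, a further retrieval receptor, was 3.77 and 3.78 against 2.48 to 2.99. The other 7 lay between 2.32 and 4.17 in every array.

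A list of 72 further secretory genes was read in the same fit, of which 52 were named and 50 tested. The F test called 43 (background 82.4%). KMS11 was higher than RPMI8226 for 9 and lower for 24 (backgrounds 35.6% and 29.4%), or for 13 and 21 with arrays centred on their medians. U266 was higher than RPMI8226 for 11 and lower for 22 (backgrounds 35.1% and 32.4%). U266 was higher than KMS11 for 19 and lower for 15 (backgrounds 29.8% and 34.0%). ERN1, encoding the stress sensor IRE1, had the widest gap, at 10.88 and 10.84 in RPMI8226, 8.74 and 8.83 in KMS11, and 7.36 and 7.28 in U266. TRIB3, a target of DDIT3, followed with 8.68 and 8.76, 8.44 and 8.39, and 5.91 and 5.92. TRIB3 and DDIT3 were both lowest in U266, but TRIB3 was highest in RPMI8226 and DDIT3 in KMS11.

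The second comparison asked whether the miR-10a mimic changed these genes. With the cell line as a block, limma called 0 of 46 members, and 0 of all 7442 tested genes (background 0%). The smallest adjusted p of a member was 0.901. At an unadjusted p under 0.05 there were 3 members, all lower (6.52%, background 2.96%), and 0 higher (background 2.46%). Without the block there were 0, but that fit leaves the line differences in the spread and could hardly call changes this small. The mean changes of the members ran from -0.27 to 0.16, with a median of -0.0065 against -0.0029 for all tested genes. For 46 of 46 members the mean change had a 95% confidence interval (uncorrected for multiple genes) that lay inside 1.5-fold both ways. In 38 members every line's change was under 1.2-fold. Neither count has a share of all tested genes beside it, so whether members were steadier than other genes was not tested. Intervals reached a median of 0.174 log2 units to either side of the mean change in members, and 0.188 over all tested genes.

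**Figure D4:**
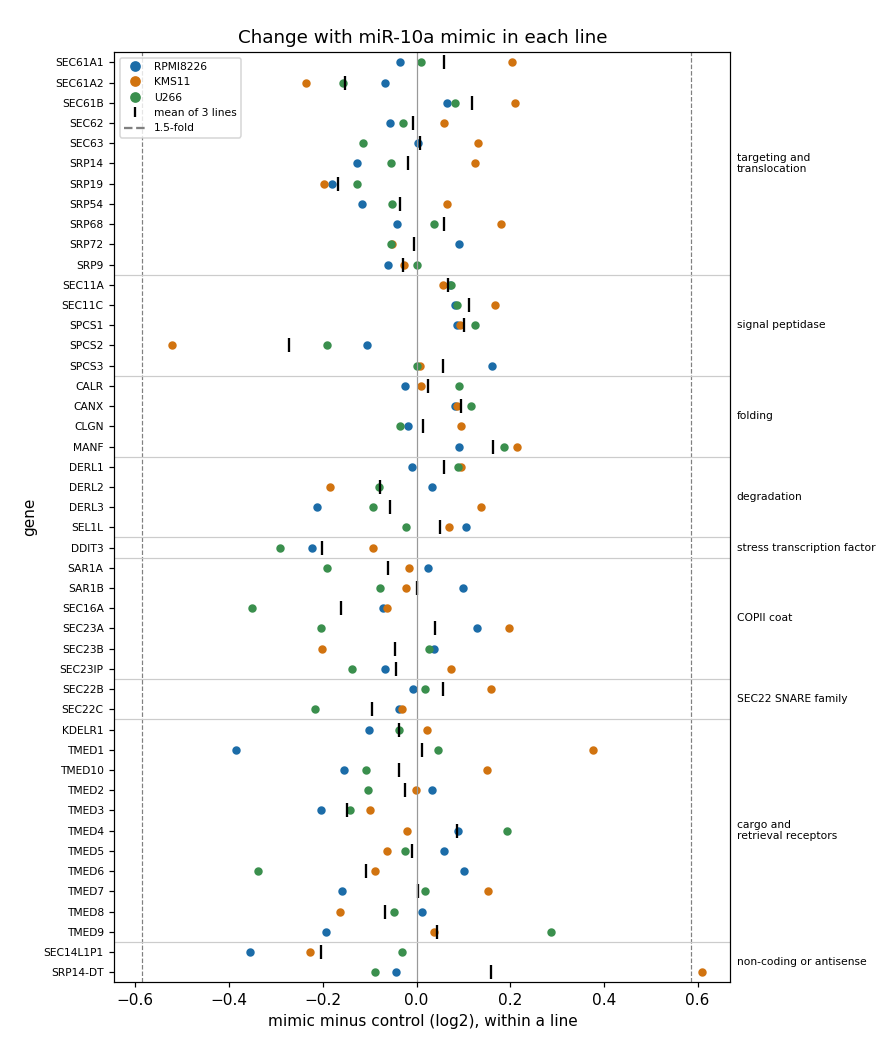
Mimic minus control (x axis, log2) of each tested member, a coloured point per line and a black tick for the mean of 3 lines; dashed lines mark 1.5-fold. Only SRP14-DT in KMS11, at 0.61, lies beyond a dashed line, and its control value there (4.56) is under the filter level.

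Of 15 members with the same sign in all 3 lines, 7 were higher with the mimic (15.2%, background 12.7%) and 8 lower (17.4%, background 13.8%). None of these differences passed the test. The widest lower value was that of the signal peptidase subunit SPCS2, with RPMI8226 at -0.10, KMS11 at -0.52 and U266 at -0.19 (mean -0.27 ± 0.22, SD, n = 3 lines, limma adjusted p = 0.901). DDIT3 was at -0.22, -0.09 and -0.29 (mean -0.20 ± 0.10, adjusted p = 0.901), against 7.34-fold between lines. SRP19 was at -0.18, -0.20 and -0.13 (mean -0.17 ± 0.04, adjusted p = 0.902). The 3 genes with an unadjusted p under 0.05 were these: 0.0328 for SPCS2, 0.0315 for DDIT3 and 0.0415 for SRP19. The pseudogene SEC14L1P1 was at -0.36, -0.23 and -0.03 (mean -0.20 ± 0.16, adjusted p = 0.902).

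The widest higher value was that of MANF, at 0.09, 0.21 and 0.19 (mean 0.16 ± 0.07, limma adjusted p = 0.902). SEC61B, SEC11C and SPCS1 followed with means of 0.12 ± 0.08, 0.11 ± 0.05 and 0.10 ± 0.02 (adjusted p = 0.917 for each). For MANF and DDIT3, both linked to ER stress, the signs were opposite in every line, and neither passed. CANX was at 0.08, 0.09 and 0.12 (mean 0.09 ± 0.02, adjusted p = 0.917). CALR was at -0.02, 0.01 and 0.09, CLGN at -0.02, 0.09 and -0.04, and SEL1L at 0.10, 0.07 and -0.02, so their signs differed between lines.

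Changes of at least 1.5-fold within a line, which have no replicate, were rare. KMS11 had 1 member higher (2.17%, background 0.430%) and 0 lower (background 0.443%), and RPMI8226 and U266 had 0 in either direction (backgrounds 0.551% and 0.497%, and 0.551% and 0.524%). The KMS11 member was SRP14-DT, at 0.61 there, -0.04 in RPMI8226 and -0.09 in U266. SRP14-DT read 4.56 in the KMS11 control array, under the filter level of 4.70, so the size of this change is uncertain. Its neighbour SRP14 was at 0.12 in KMS11. TMED1 went opposite ways, at -0.38 in RPMI8226 and 0.38 in KMS11. The widest changes in U266 were those of SEC16A at -0.35, TMED6 at -0.34 and DDIT3 at -0.29.

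A term for each line's own mimic change, fitted with 1 residual degree of freedom, gave 0 members past the threshold in RPMI8226, KMS11 or U266 (background 0% each). At an unadjusted p under 0.05 there was 1 for RPMI8226 (TMED1, limma adjusted p = 0.757), 1 for KMS11 (SRP14-DT) and 0 for U266. Of the further secretory genes, 0 of 50 were called. By sign 34 were higher and 16 lower, with a median of 0.04, against 3637 and 3805 of all tested genes. After quantile normalization the splits were 34 and 16 against 3945 and 3497, and with arrays centred 31 and 19 against 3360 and 4082. The widest values with 1 sign in all lines were those of the ubiquitin-conjugating enzyme UBE2G2, at -0.18 ± 0.12 (limma adjusted p = 0.902), and of SDF2, a protein of the ER lumen, at 0.13 ± 0.13 (adjusted p = 0.917).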

How the data were processed

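The values are log2 expression per probe set, which the authors deposited for 6 Affymetrix arrays. They were made with Affymetrix Expression Console 1.3.0, per the submitters' processing notes; how background was corrected and arrays normalized, and the build, is not given in the sources used here. The platform annotation named 16098 of 53617 probe sets with 1 symbol each, and 37519 were left unnamed. Each of 14884 genes was represented by its probe set with the highest mean over the arrays, and genes at or above the median of those means (4.70) were tested. Models were fitted with limma 3.58.1 in R 4.3.3 (lmFit and eBayes), with cell line as a block and a treatment term, 2 residual and 3.82 prior degrees of freedom, and Benjamini-Hochberg adjustment over 7442 genes at a threshold of 0.05. The scripts were tested on simulated data. Arrays were paired by the cell line in the labels, and the deviations of a line's arrays from their group means correlated at 0.967 to 0.970. The precision is limited by the number of arrays.

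The members and lists were chosen with earlier results of these data known. Named genes were the widest and the narrowest line gaps of each role group, the 4 widest mimic changes in each direction with 1 sign in all lines, the 3 widest in each line, and the genes listed by name; of the further secretory genes, the 2 widest of each kind. Other members are named, beyond that rule, after their values were seen. Sequences and promoter windows (250 bases before to 50 after a start) are from RefSeq, GRCh38.p14. Alternatives were array centring, quantile normalization, other filters, the mean of all probe sets, a variance trend, no treatment term, no block, and each line left out.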

Additional observations from a re-analysis of the deposited data

How the results depend on the processing

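Under all alternatives run, 0 members passed the threshold for mimic minus control, including the fits without each line (0 to 0). The fit with no replicate block also gave 0 members. It leaves the line differences in the spread (SE of DDIT3 0.98, against 0.07 in the main fit), so its 0 says little about the mimic. The F test between lines called 42 of 46 members and 6135 of 7442 genes. Among the upper 25% of genes it called 32 of 34 members tested and 3474 genes in all. With no filter it called 45 of 56 members and 7561 of 14884 genes. With a line left out, where fewer contrasts remain, it called 31 to 34 members and 4749 to 4943 of 7442 genes. The members' share beside that of all genes therefore depends on the filter, and the difference was not tested. Over the main comparisons, 79 counts under an alternative came within 1.5 times the count reported, those above included, though many were 0 in both fits. For single named genes, 260 values kept their direction and side of the threshold. Other filters, a variance trend, no treatment term or no block leave the estimate unchanged, so there direction could not change. The mean of all probe sets likewise leaves genes with 1 probe set unchanged. The count of members with a 1.5-fold mimic change in KMS11 went from 1 to 0 among the upper 25% of genes, where fewer genes are tested. With no filter, where more genes are tested, 9 calls of tested members in limma's line contrasts and F tests were lost and 0 gained. KMS11 minus U266 for SRP68 stayed at 0.28 (limma adjusted p = 0.0876). Also lost were SRP54 for U266 minus KMS11 (0.0522) and the F test (0.0924), SRP14-DT for U266 minus RPMI8226 (0.0818) and the F test (0.0589), SEC61A1 (0.0849) and SPCS1 (0.119) for U266 minus RPMI8226, and TMED9 (0.0527) and SEC14L1P1 (0.0664) for KMS11 minus RPMI8226. With a variance trend RPMI8226 minus KMS11 for CALR, at 0.13, gained one (adjusted p = 0.0163). No value reversed. Each line's own mimic change could not be fitted with a line left out or without the block. In the fits that could be run, 0 members passed for it. Over all tested genes, the main fit called 0, but a variance trend called 28 for U266 and 15 for KMS11. Among the upper 25% of genes, 10 were called for U266. Low values have no detection calls, which limits CLGN in RPMI8226, TMED6 in KMS11, SRP14-DT in the KMS11 control array and the 10 members below the filter.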
